A study of Mus musculus with 6 samples.

Results

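Chromatin in mammalian nuclei separates into compartments. Regions of open, active chromatin tend to meet one another across the nucleus, regions of closed chromatin do likewise, and Hi-C reveals the division as a leading pattern in the contact profiles of the bins. A score along that pattern places each stretch of a chromosome on an axis between the classes. The bins at one end of that axis, the highest 20% by score, were described here in mouse embryonic fibroblasts. They number 468 of 2341 scored bins of 1 Mb, out of 2666 bins in the key of bin positions and 2573 with any value.

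The members were chosen by their contacts with other chromosomes. A bin was scored if it had at least 50% of the median of 1087 listed partners on other chromosomes. The balanced values were divided by their mean over different chromosomes, pairs that were not listed counted as 0, and all entries within a chromosome were set to 1. The score is the first eigenvector of the correlations between the resulting rows, turned so that the mean of chromosome 11 lies above 0 and scaled to a root mean square of 1. Membership depends on these steps: 17.5% of the members were found again when unlisted pairs were set to 1, and 25.2% when no bin was left out. The label compartment score could not be checked against gene content, since gene positions on the build of the map, mm9, were not used here. The members are therefore not called active or inactive, and the sign follows from chromosome 11 alone.

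The cells were fibroblasts of a 129xCast hybrid background, in 1 group of 6 samples that came from 2 embryos with 3 technical replicates each, and no treatment is named in the labels. Chromatin was cut with HindIII and ligated in dilution. The authors deposited 1 pooled map, so no value has a replicate and no test between samples was possible. From its name the table was read as holding contacts between a Cast end and a 129 end, which the labels do not state. The name also carries a pair of number codes that could stand for such allele pairs or for 2 of the 6 samples, so which samples entered the pool is unsettled. On that reading, same-chromosome values would join homologs. The scored bins held 1776055 contacts between chromosomes and 101600 within a chromosome. The map was sparse, with 0.684 contacts on average for 2 bins of different chromosomes and no contact at all in 52.7% of those pairings. Precision therefore comes from sums over many pairs. All intervals are exact 95% Poisson or binomial (Clopper-Pearson) intervals that cover counting error only, since the 1 pooled map has no replicate. Reads copied by PCR, if any remained, are not independent molecules and would make the intervals too narrow.

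The score was lopsided, with a long upper tail in which the members lie. Their scores ran from 0.737 to 4.98 with a median of 1.42. Of the members, 123 scored above 2 and 26 above 3, whereas the lowest of all bins had −2.25 and 3 bins lay below −2. The first eigenvector carried 0.365% of the variance of the sparse profiles. There was no gap at the threshold. The last 3 bins inside it, on chromosome 13 at chr13:94000001-95000000, chromosome 5 at chr5:73000001-74000000 and chromosome 4 at chr4:40000001-41000000, scored 0.742, 0.738 and 0.737. The first 3 outside, at chr9:95000001-96000000, chr3:104000001-105000000 and chr17:83000001-84000000, scored 0.735, 0.733 and 0.732. Members held slightly fewer contacts with other chromosomes than the opposite end of the axis. The axis was divided into 5 quintiles, of which the members are the top one. A member had a median of 1532 such contacts and a mean of 1502 ± 333 (SD, 468 bins), and a bin of the bottom quintile had a median of 1622 and a mean of 1573 ± 362 (SD, 468 bins). These ranges overlap widely, from 654 to 2443 and from 647 to 2651. Quintiles 2, 3 and 4 had means of 1526, 1494 and 1493, so the members were level with the middle of the axis and the bottom quintile was the higher one.

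Members lay on all 20 chromosomes with scored bins, but at unequal density. The highest shares were those of chromosome 11, with 36 of 115 bins or 31.3% (95% binomial interval 23.0 to 40.6), chromosome 9, with 32 of 115 or 27.8% (19.9 to 37.0), and chromosome 19, with 15 of 54 or 27.8% (16.5 to 41.6). Chromosome 11 also set the sign of the score, so its place is partly fixed by the rule. The lowest autosomal shares were 16.2% (10.7 to 23.2) on chromosome 3 and 16.7% (10.6 to 24.3) on chromosome 10. The mean over the 19 autosomes was 21.3% ± 4.04 (SD). Their intervals overlap, so most autosomes cannot be ranked.

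Chromosome X stood apart, with 4 members among 110 scored bins, or 3.64% (1.00 to 9.05). Its mean score was −0.291, the lowest of all chromosomes. The bottom quintile was not enriched in X, since 20 of its bins, 18.2%, fell there. Of the X bins, 24, 30 and 32 lay in quintiles 2, 3 and 4. Bins of X were also thinner, with a median of 1180 contacts against 1576 over all autosomal bins. What part this has in the low share was not tested. All 4 X members were isolated bins, starting at chrX:12000001, chrX:56000001, chrX:71000001 and chrX:98000001, and their scores were 0.761, 0.781, 0.859 and 1.38. Chromosomes 12, 15, 16, 18 and 19 had 21.3% members (17.5 to 25.5), near the 20.8% (19.1 to 22.5) of all autosomes together.

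**Figure D1:**
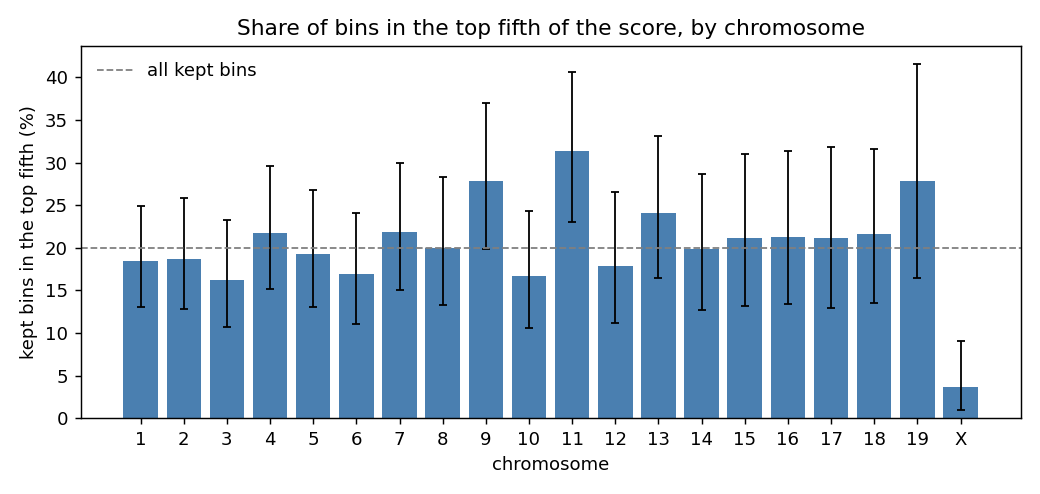
Share of scored 1 Mb bins that are members, in percent, for each chromosome; bars are shares, lines are exact 95% binomial intervals and the dashed line is the 20% of all scored bins. Chromosome 11 is highest at 31.3% and X lowest at 3.64%, while most autosomal intervals reach the dashed line.

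Members formed blocks along the chromosomes. They fell into 227 runs of adjacent bins, and 360 of them, 76.9%, had a member next to them. The other 108 were isolated. Runs of 3 Mb or more numbered 64, held 250 members (53.4%) and occurred on 19 chromosomes. There were 55 runs of 2 Mb, 39 of 3 Mb, 10 of 4 Mb and 15 longer ones. Members in runs of 3 Mb or more had a median score of 1.62, against 1.12 for isolated members. Of the 454 run ends, 29 lay at a bin that was left out or at a chromosome end, so a few runs may be cut short.

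The share of members near a member fell to that of all bins by 5 Mb, but was higher again at 15 and 20 Mb. At 1 Mb from a member, 53.2% of scored bins were members too (48.5 to 57.9), at 2 Mb 37.8% (33.2 to 42.5), at 3 Mb 31.8% (27.4 to 36.4) and at 4 Mb 27.3% (23.1 to 31.9). At 5 Mb the share was 20.9% (17.1 to 25.2), close to the 20% of all bins, and from 6 to 10 Mb it lay between 20.3% and 21.5%. At 15 Mb it was 26.6% (22.1 to 31.5). Adjacency did not enter the rule, but neighbouring bins are not independent, so the intervals understate the uncertainty. Bins beside a run were intermediate. The 384 adjacent non-members had a median score of −0.0491, and 44.5% of them lay in quintile 2, against −0.461 and 19.9% for the other 1489 non-members.

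**Figure D2:**
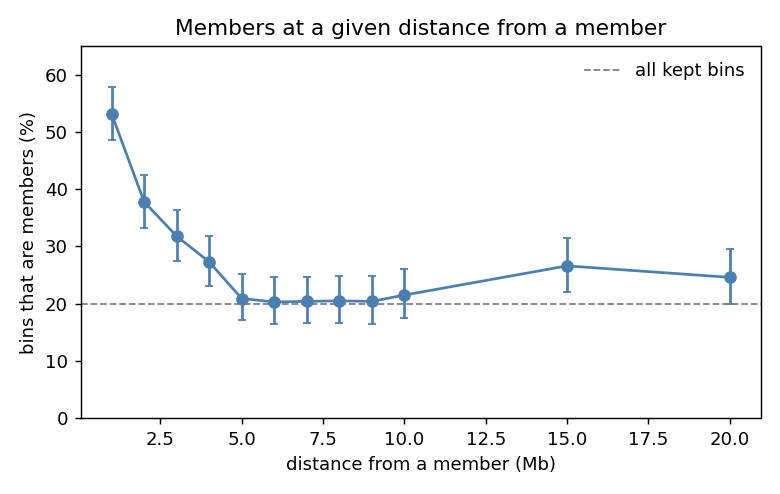
Percent of scored bins that are members at each distance in Mb from a member, with exact 95% binomial intervals; the dashed line is the 20% of all scored bins. The share falls from 53.2% at 1 Mb to 20.9% at 5 Mb, and is 26.6% at 15 Mb and 24.6% at 20 Mb.

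Runs of 7 bins or more lay on chromosomes 9, 1, 4 and 5. The longest, chr9:56000001-67000000, held 11 bins with scores from 1.67 to 2.95 and a mean of 2.18. The next was chr1:88000001-96000000 with 8 bins, a mean score of 1.20 and several bins close to the threshold, from 0.825 upwards. Those at chr4:132000001-139000000 and chr5:30000001-37000000 had 7 bins each, with means of 2.24 and 1.92. Chr8:122000001-128000000 had 6 bins, a mean of 2.56 and a peak of 3.65, and was taken for its mean score among 5 runs of 6 bins. The others of that length were chr7:104000001-110000000, chr11:74000001-80000000, chr15:76000001-82000000 and chr17:25000001-31000000, with means of 1.53, 1.88, 2.18 and 2.07. The run on chromosome 8 lay near the high-coordinate end of its chromosome. Within the run on chromosome 4, scores changed from bin to bin, from 1.05 to 3.32, and the bins at its start had as few as 851 contacts.

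The first 4 of these runs and that on chromosome 8 met one another across chromosomes. Over their 10 pairings 560 contacts were found where the bins' totals gave 384, an observed/expected ratio of 1.46 (95% Poisson interval 1.34 to 1.59). With each of the other runs of 6 bins in place of that on chromosome 8 the ratio was 1.32 to 1.47, and over all 9 runs it was 1.42 (1.35 to 1.49), a comparison added after values were seen. Expected numbers, here and in what follows, multiply the factors of both bins, where factors are set so that each bin keeps its own total across chromosomes. The runs on chromosomes 4 and 5 had 48 contacts against 26.0 expected, or 1.84 (1.36 to 2.44), and those on 4 and 9 had 77 against 42.9, or 1.79 (1.42 to 2.24). For 4 of the 10 pairings the interval included 1. They were chromosomes 1 and 4 at 1.08 (0.731 to 1.53), 9 and 5 at 1.17 (63 contacts against 53.9 expected, lower bound 0.899), 1 and 5 at 1.30 (0.956 to 1.73) and 1 and 8 at 1.33 (0.965 to 1.78). As contacts of this kind chose the members, these values describe the runs and are no evidence for them.

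Members were scarce from 5 to 20 Mb off the low-coordinate ends, where mouse chromosomes carry their centromeres. In that span, set after its values were seen, they were 16 of 280 bins, or 5.71% (3.30 to 9.11). The outermost 5 Mb were not low in the same way, with 6 of 34 bins or 17.6% (6.76 to 34.5), a wide interval that includes the 20% of all bins. From 15 to 20 Mb they were 2 of 94, or 2.13% (0.259 to 7.48), and both belong to a pair of adjacent bins at chr16:17000001-19000000, which scored 3.02 and 1.75. The 16 members between 5 and 20 Mb lay on 9 chromosomes, 4 of them on chromosome 19. Farther in, 15 of 79 bins were members at 20 to 25 Mb, and the share was 26.1% (17.3 to 36.6) at 25 to 30 Mb and 30.2% (20.8 to 41.1) at 30 to 35 Mb. The scarce bins were not thinner. Those from 5 to 20 Mb had a median of 1544 contacts, near the 1557 of all scored bins. In the same span 27.1% of bins were in the bottom quintile.

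The opposite ends showed no such lack. In the outer 10 Mb at the high-coordinate end, 52 of 196 bins or 26.5% (20.5 to 33.3) were members, against 13 of 125 or 10.4% (5.65 to 17.1) at the low-coordinate end and 403 of 2020 or 20% (18.2 to 21.8) in between. The high ends were uneven among chromosomes. On chromosome 8, 7 of 11 bins were members, and on chromosomes 4 and 9 it was 5 of 9 each, while the high ends of chromosomes 2, 3, 18 and X had none. Members occurred in the high end of 16 chromosomes and in the low end of 8.

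**Figure D3:**
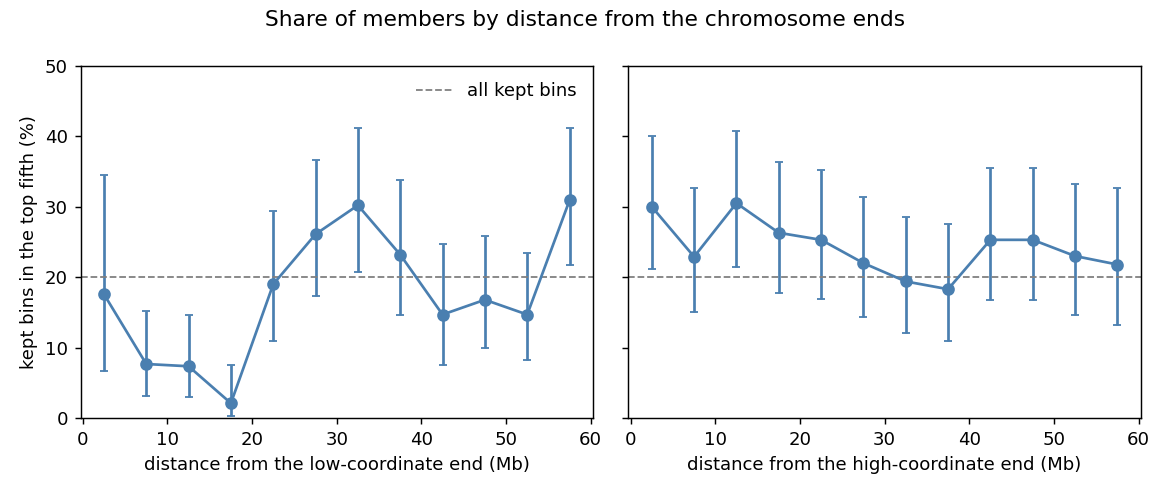
Percent of scored bins that are members in steps of 5 Mb from the low-coordinate end (left) and the high-coordinate end (right), with exact 95% binomial intervals; the dashed line is the 20% of all scored bins. At the low-coordinate end the share is 17.6% in the first step, drops to 2.13% at 15 to 20 Mb and reaches 30.2% at 30 to 35 Mb, while at the other end no step is below 18.3%.

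The bins at the head of the score stood out one by one. The first, chr2:30000001-31000000, scored 4.98, well above the next. It had 1502 contacts with other chromosomes, of which 506 were with members, or 1.69 times the expected number (1.55 to 1.84), and 199 were with the bottom quintile, or 0.633 times (0.548 to 0.727). It exceeded 1 with the members of 18 of 19 other chromosomes and the interval was above 1 for 13. The exception was chromosome 10, with 12 contacts against 15.5 expected, or 0.776 (0.401 to 1.36). The excess was spread over many partners, since no single bin had more than 6 contacts with it. These counts use the contacts that gave the bin its score, so an excess with members is in part built in. With the contacts of each chromosome pair left out of the score in turn, as described below, the ratio was 1.65. That step found the partner bins anew, but the bin itself was still picked by its full score. Part of the excess therefore remains built in. The neighbours of this bin in a run of 5 bins scored less, at 3.01, 1.90, 2.02 and 1.40.

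The next in rank were chr5:122000001-123000000 with a score of 3.91, chr8:125000001-126000000 with 3.65, chr11:97000001-98000000 with 3.59 and chr3:89000001-90000000 with 3.55. Then came chr9:21000001-22000000 and chr12:112000001-113000000, both with 3.52, chr7:87000001-88000000 with 3.50, chr10:80000001-81000000 with 3.49 and chr12:86000001-87000000 with 3.38. All of these 10 bins, taken at most 1 per 5 Mb, had a neighbour among the members. The bin on chromosome 10 rested on only 853 contacts, of which 298 were with members, or 1.75 (1.55 to 1.96). Its precision is accordingly lower than that of the bin on chromosome 2. Over all 468 members, the ratio with other members was above 1 for 466 and its interval was above 1 for 354. It ran from 0.993 to 1.75 with a median of 1.19. With the bottom quintile it was below 1 for 462, with a median of 0.873. Both follow in part from the choice of members.

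Contacts between members on different chromosomes fell steadily with the score of the partner. Members had 82938 contacts with one another against 69347 expected, a ratio of 1.20 (1.19 to 1.20). With quintiles 2, 3, 4 and 5 the ratios were 1.03, 0.972, 0.930 and 0.874. These same contacts chose the members. A second score was therefore computed for each of the 190 chromosome pairs with the contacts of that pair set to 1, and the pair was then summed by the quintiles found without it. This setting was added after the first values had been seen. At least 98.1% of the members were found again in each such score. That share counts the members of all chromosomes, while each score left out a single pair. A high value was thus largely fixed in advance, and it does not show how many members of the pair itself were kept. The ratio of members with members was then 1.16 (1.15 to 1.16), and the others were 1.02, 0.966, 0.940 and 0.918 (0.913 to 0.923 for the last).

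The excess was strongest at the head of the score. With the pair held out, the highest 10% of all bins had a ratio of 1.33 (1.32 to 1.35) with one another, and the next 10% had 1.06 (1.05 to 1.08). Members in runs of 3 Mb or more had 1.26 (1.24 to 1.27) with one another in all contacts, and isolated members had 1.12 (1.09 to 1.15). These same contacts chose the members, and those in such runs scored higher, with a median of 1.62 against 1.12. The difference is therefore in part built in. With the pair held out and both bins above the median number of contacts, the ratio was 1.11 (1.10 to 1.12), so it was smaller in well covered bins but above 1. With both bins outside the outer 10 Mb at either end it was 1.15 (1.14 to 1.16).

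Nearly every pair of autosomes showed it. With the pair held out, 168 of 171 autosome pairs had a ratio above 1, with a median of 1.16 and a range of 0.973 to 1.51, and the interval was above 1 for 132 and below 1 for 0. In all contacts the highest pairs were chromosomes 15 and 17 at 1.49 (1.32 to 1.68), 13 and X at 1.48 (1.20 to 1.81), 11 and 17 at 1.44 (1.32 to 1.57), 2 and 15 at 1.35 (1.23 to 1.48) and 5 and 8 at 1.34 (1.23 to 1.46). The lowest 5 all involved X, with 1 and X at 0.889, 9 and X at 0.939, 17 and X at 0.941, 18 and X at 0.952 and 10 and X at 0.956, each with an interval that includes 1. This order rests on the contacts that chose the members, and it held only in part with the pair left out. Held out, the lowest 5 were 9 and X at 0.676 (0.456 to 0.966), 6 and X at 0.784 (0.554 to 1.08), 1 and X at 0.798 (0.623 to 1.01), 18 and X at 0.930 and 8 and X at 0.931, while 10 and X had 1.16 (0.780 to 1.67). The highest held out were again 15 and 17 at 1.51 (1.34 to 1.70) and 13 and X at 1.45 (1.14 to 1.82). Pairs with X rest on 4 members of X in all contacts. Held out, they rest on the X bins of the top quintile found without each pair, which could differ from these 4. Between 7 and X, for instance, 71 contacts were summed in all contacts and 29 held out. Held out, 10 of the 19 pairs with X were above 1. Of these 19, 1 interval was above 1 (13 and X) and 1 below (9 and X, the sole such pair of the 190). The sum over the 19 was 1.01 (0.943 to 1.08), so no excess over X as a whole was detectable at this depth. All X bins together met autosomal members at 0.968 (0.956 to 0.980) of expectation.

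**Figure D4:**
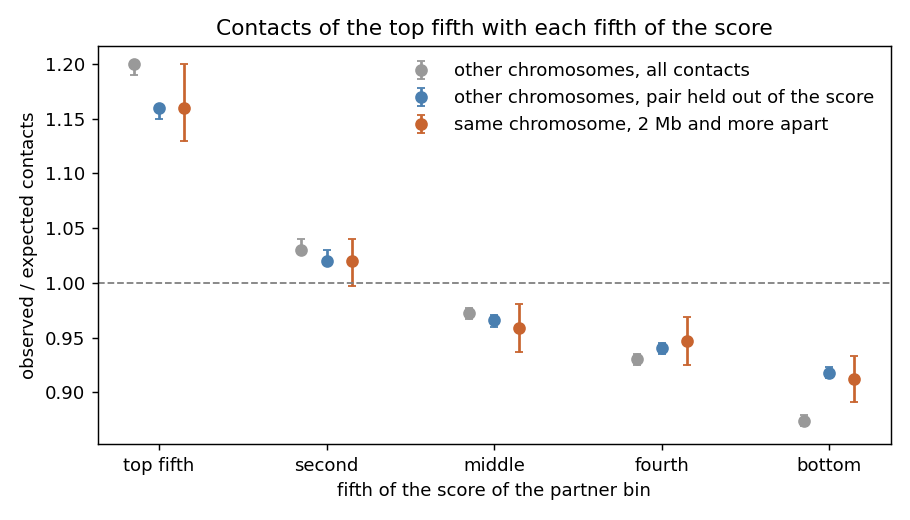
Observed over expected contacts of members with each of the 5 quintiles of the score, for other chromosomes in all contacts (grey), for other chromosomes with the chromosome pair held out of the score (blue) and for the same chromosome at 2 Mb and more (orange); lines are exact 95% Poisson intervals and the dashed line is 1. All series fall from the top to the bottom quintile, from 1.20 to 0.874, 1.16 to 0.918 and 1.16 to 0.912. On the reading from the map's name, the same-chromosome contacts would join homologs.

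Contacts within a chromosome, which on the reading from the map's name would join homologs, did not enter the rule. At 2 Mb and more they followed the same order. There, 5518 pairs of members had 4382 contacts against 3775 expected from the bin factors and the mean at that distance, a ratio of 1.16 (1.13 to 1.20). With quintile 2 members had 1.02 (0.997 to 1.04), with the middle 0.959 (0.937 to 0.981), with quintile 4 0.947 (0.925 to 0.969) and with the bottom 0.912 (0.891 to 0.933). Bins of the bottom quintile met one another at 1.04 (1.01 to 1.07), so the excess within the top exceeded that within the bottom beyond counting error. These contacts come from the same pooled library as those that made the score, and so are no replicate of it. The number expected per pair was close to that for the 103519 pairs of members on different chromosomes, with 69347 expected. Whether any same-chromosome contacts join bins of 1 chromosome copy was not tested.

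Between members the ratio was above 1 in every span of distance. Members 1 Mb apart had a ratio of 1.24 (1.11 to 1.39). At that distance the order by quintile did not hold, since members had 1.37 (1.10 to 1.70, 86 contacts) with quintile 4 and 1.06 (0.826 to 1.34, 69 contacts) with the bottom. Members 2 to 4 Mb apart had 1.23 (1.11 to 1.36). At 5 to 9 Mb it was 1.09 (0.970 to 1.22), the only span whose interval includes 1. It was 1.18 (1.09 to 1.27) at 10 to 19 Mb, 1.15 (1.09 to 1.21) at 20 to 49 Mb, 1.17 (1.11 to 1.24) at 50 to 99 Mb and 1.14 (1.01 to 1.28) at 100 Mb and more. Members and bottom bins 2 to 4 Mb apart had 0.773 (0.685 to 0.870), the lowest of the spans.

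By chromosome, the ratio within the chromosome was above 1 on 16 of 19 autosomes, with a mean of 1.16 ± 0.140 (SD), and its interval was above 1 on 11 and below 1 on 0. Chromosome 17 had the highest autosomal value at 1.40 (1.14 to 1.70, 103 contacts), followed by chromosome 15 at 1.34 (1.12 to 1.58) and chromosome 11 at 1.32 (1.21 to 1.44). Those below 1 were chromosome 10 at 0.917 (0.776 to 1.08), 14 at 0.952 (0.802 to 1.12) and 18 at 0.930 (0.771 to 1.11), whose intervals include 1. X had 5 such contacts, too few for a value.

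Contacts within a single bin did not set the members apart. They numbered 580 in the members and 618 in the bottom quintile. Unlike elsewhere, the expected number within a bin was the product of the bin's factor with itself, divided by 2. Over that number the ratio was 3.53 (3.25 to 3.83) in members. It was 3.36 (3.08 to 3.65) in the middle and 3.42 (3.15 to 3.70) in the bottom. These intervals overlap. Quintile 2 was lower, at 2.72 (2.48 to 2.98).

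**Figure D5:**
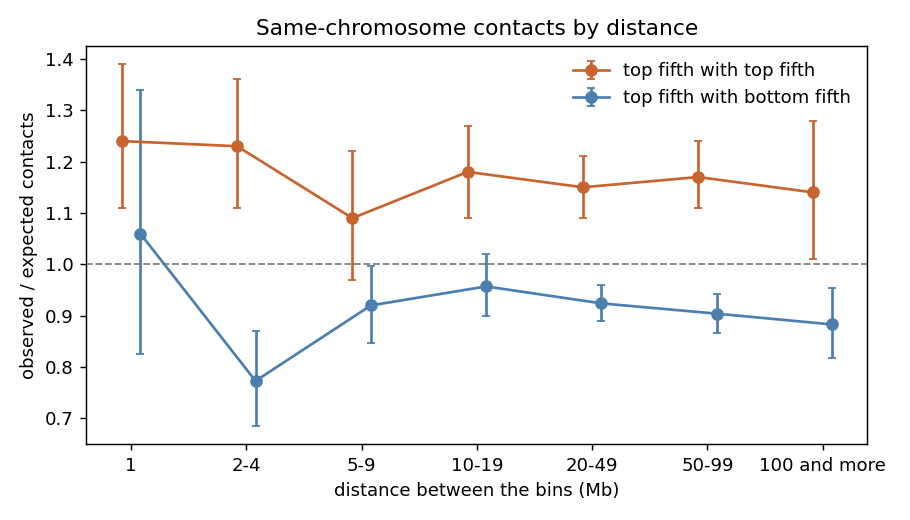
Observed over expected contacts within a chromosome by distance between the bins in Mb, for members with members (orange) and members with the bottom quintile (blue); lines are exact 95% Poisson intervals and the dashed line is 1. Members with members lie between 1.09 and 1.24 in every span, and from 2 Mb on members with the bottom quintile lie below 1. On the reading from the map's name, these contacts would join homologs.

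The identity of the members rests on 2 choices in the processing. When pairs that were not listed were set to 1 in place of 0, 82 of the 468 members (17.5%) were found again, and the new set had ratios of 0.957 across and 0.990 within chromosomes. With no filter on thin bins, 118 of 468 (25.2%) were found again, with ratios of 1.01 and 0.985. The sets found under these settings differed from the other bins in coverage, with 0.630 and 1.31 times their mean contacts per bin, against 0.987 for the members reported. What part coverage has in those sets was not tested.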

How the data were processed

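Hi-C contacts of fibroblasts from 129xCast embryos were analysed from 1 table, a balanced (iced) contact signal per pair of 1 Mb bins that the authors pooled and deposited beside a list of bin positions. HiC-Pro 2.7.8, bedtools and mm9 appear in the submitters' processing notes, with no role stated. Which aligner and read filters were used is not given in the sources used here. Codes in the table's name could mark allele pairs or the pooled samples (embryo 1 technical replicate 2 and embryo 2 technical replicate 1), and this was not settled.

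Dividing each balanced value by a factor per bin recovered whole contacts (100% of 1365118 listed pairs of different bins whole within 0.01), and ratios and intervals used these contacts. The expected value within a chromosome was also scaled to the mean at each distance. A held-out score left out the contacts of 1 chromosome pair at a time and was added after values were seen. The distance from the high-coordinate end was also redefined after values were seen, so that the 5 Mb steps and the outer 10 Mb count the same bins, which lowered the share of members there. Members and lists were chosen with earlier results of these data known. Named bins are the 10 highest scores at most 1 per 5 Mb, the 5 longest runs (ties by mean score), 3 bins on each side of the threshold, the 3 highest and 3 lowest chromosomes and the 5 highest and 5 lowest chromosome pairs. Other bins and chromosomes named were chosen after their values were seen.

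Gene content and base composition were not analysed here, as no mm9 positions or genome were used. The steps were tested on simulated data. Calculations ran in Python 3.11.15 with numpy 2.4.6; intervals came from scipy 1.17.1, tables were read by pandas 2.3.3 and figures were drawn by matplotlib 3.10.9. Coordinates are 1-based on mm9.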

Additional observations from a re-analysis of the deposited data

How the results depend on the processing

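Listed pairs alone gave 17.5% of members shared, ratios of 0.957 across chromosomes and 0.990 within, 54.3% of members with an adjacent member and 0.630 for contacts per bin (members over other bins). No bin filter gave 25.2%, 1.01, 0.985, 50.1% and 1.31. Outside these, settings that rescored the bins kept 85.5% (projection on the other chromosomes) to 99.1% (values capped) of the members. A filter at 80% gave 71.8% with an adjacent member and 0.984 contacts per bin, and the projection 0.957. Each chromosome left out in turn gave 93.9 to 97.1% of members, 1.18 to 1.20 across chromosomes, 1.13 to 1.18 within, 73.7 to 78.9% adjacent and 0.974 to 1.01 contacts per bin, with 1.01 without chromosome 11, a reversal. Without X the ratio across chromosomes was 1.20, its small change exceeding counting error, and contacts per bin were 0.980. The highest 10% gave 1.39 across, 1.39 within, 68.8% adjacent and 0.953 contacts per bin. The highest 780 bins gave 1.09, 1.08 and 1.00, the last a reversal. The highest 20% of each chromosome gave 72.5% adjacent and 0.977 contacts per bin. Balanced signal gave 1.22 across chromosomes, and the score without the chromosome pair 1.16. Gene content and base composition were not run. No paired analysis was possible because the deposited table holds 1 pooled map with no replicate. At a mean of 0.684 contacts per pair, single pairs of bins cannot be read.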
